A study of Heliconius erato cyrbia and Heliconius erato demophoon with 32 samples.

Results

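The loci described here are the abundant unannotated loci of the pupal wing transcriptome of Heliconius erato. They were chosen from the deposited count table as loci whose ID held no gene model of the reference and whose mean level was at or above 20 CPM (the count divided by the library total, on the usual scale of CPM) in each of the 8 groups of libraries. Of 24118 loci in the table, 11063 carried no gene model ID, and 180 of these (1.63%) met the floor, so that the levels in every group had chosen the members. Another 210 loci carried only the ID of an added gene model and were left out. Of 12845 loci with a gene model of the reference annotation, 2200 (17.1%) met the same floor and are called abundant annotated loci below. Just inside the floor lay MSTRG.16042, MSTRG.19340 and MSTRG.9632, each with a lowest group mean of 20.1 CPM. Just outside lay MSTRG.17021 at 19.9 CPM, MSTRG.5299 at 19.8 CPM and MSTRG.20832 at 19.5 CPM.

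RNA was sequenced from wings of 16 pupae of H. erato, 4 for each combination of subspecies and stage, reared in captivity. H. e. cyrbia has iridescent blue wings and H. e. demophoon does not, and pupae were taken at 50% or 70% of development. Each animal gave 2 libraries, one from the anterior hindwing (the androconial region, with its own type of scale) and one from the forewing with the posterior hindwing, here called the main wing. The cyrbia pupae were animals 1 to 4 at 50% (2 males and 2 females) and animals 9 to 12 at 70% (4 males), and the demophoon pupae were animals 5 to 8 at 50% and 13 to 16 at 70% (3 females and 1 male at each stage).

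An assembly made from reads places transcripts wherever reads pile up, so that it holds loci which gene models made from a genome do not. Such loci can be long noncoding RNAs, protein-coding genes missed by the annotation, untranslated ends cut off from a nearby gene, or copies of repeats. In the pupal wing, scale cells grow and then build the cuticle of the scales, and these steps are known to involve large shifts in transcription. No sequence or gene name was at hand for the members, so that each is called by its assembly number and none can be given a function. The labelled tissue could not be checked against marker genes for the same reason.

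Library totals ran from 9330883 to 68986011 counts, and each of the 32 libraries was most like the second library from its own animal once group means were taken out. The numbers of the libraries in the labels ran through 70% first and 50% after it, so that library order and stage cannot be told apart. In bulk tissue, fewer cells of a type and less RNA per cell cannot be told apart either. The main wing libraries of animals 13 and 14 and the anterior hindwing library of animal 13, all demophoon at 70%, stood apart in most of a set of 9 members, and results that rest on them are given with and without these animals.

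The 180 members took 7.90% of all counts on average over the 32 libraries, from 3.49% to 32.3%. They were 42.0% to 92.3% of the counts in all unannotated loci, while abundant annotated loci took 45.5% to 76.4% of library counts. In cyrbia main wings the share was 4.91% ± 0.957 (SD, n = 4) at 50% and 8.52% ± 0.753 at 70%. In demophoon main wings it was 5.69% ± 0.443 at 50% and 16.4% ± 10.7 at 70%, where the 4 animals ranged from 9.05% to 32.3%. Both subspecies therefore had the higher share at 70%, and the 4 values of each stage did not overlap. In the anterior hindwing the share went from 4.11% ± 0.230 to 7.63% ± 0.712 in cyrbia and from 5.29% ± 0.687 to 10.6% ± 4.93 in demophoon. These shares are given with no test, since the members were chosen on their levels.

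The share came apart into 3 blocks. A single locus, MSTRG.18526, took 0.000777% to 0.0949% of counts in the 50% libraries and 2.24% to 4.55% in the 70% libraries. A set of 9 members, chosen after their values were seen because most of them were high in the same few libraries, took 26.2% of the counts of animal 13 in its main wing and 10.4% in its anterior hindwing. In the main wing of animal 14 this set took 5.55%, the highest value in any library outside animal 13, and the lowest value in any library was 0.281%. The other 170 members took 2.93% to 5.88%. Their main wing share was 3.75% ± 0.564 in cyrbia and 4.50% ± 0.190 in demophoon at 50%, and 4.33% ± 0.439 and 5.00% ± 1.21 at 70%, so that the ranges of the stages overlapped in each subspecies once the 10 loci were taken out.

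**Figure D1:**
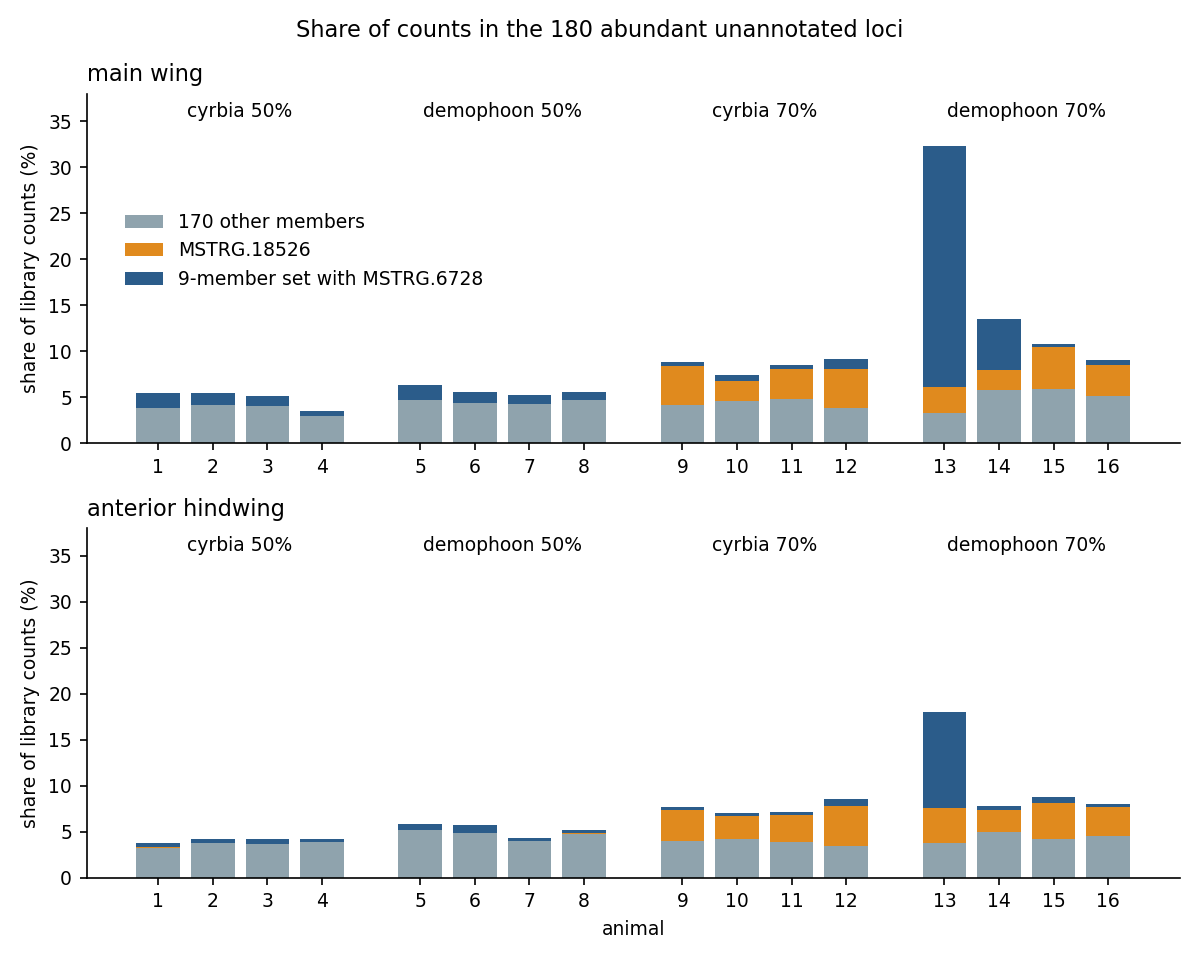
Share of library counts (percent) taken by the 180 members in each of the 16 animals, in the main wing (top) and the anterior hindwing (bottom), each bar divided into MSTRG.18526, the set of 9 members with MSTRG.6728, and the other 170 members. MSTRG.18526 is visible as a block only at 70%, and the 9 members made up most of the 32.3% in the main wing of animal 13.

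Most members were far less abundant than these. Over the 8 group means, 16 members had a mean of 1000 CPM or more, 55 lay between 100 and 1000, 46 between 50 and 100, and 63 between 20 and 50. Of the 180, 109 were at or above 20 CPM in all 32 libraries, and 14 had a count of 0 in at least 1 library (61 of 5760 values). CPM is not divided by transcript length, which the files do not give, so ranks between loci are ranks of counts and not of molecules. By that measure 15 members were among the 100 highest loci of the table and 1 among the 10 highest. MSTRG.18526 ranked 7 (mean 16743 CPM), MSTRG.22334 ranked 21 and MSTRG.6728 ranked 22, followed by MSTRG.10444, MSTRG.479, MSTRG.13062, MSTRG.10720, MSTRG.480, MSTRG.7763 and MSTRG.15414, which ranked between 30 and 54.

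**Figure D2:**
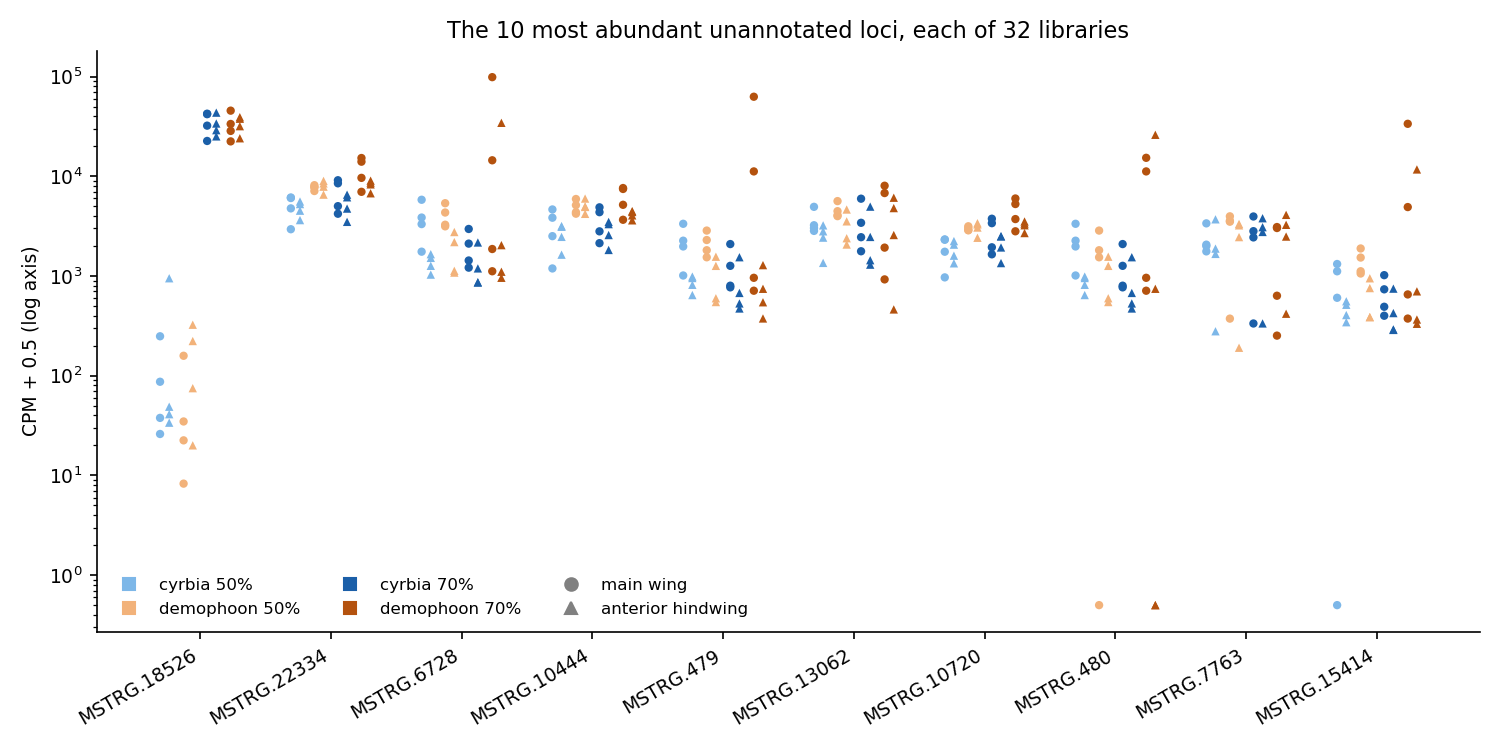
Level (CPM + 0.5, log axis) of the 10 members with the highest mean in each of the 32 libraries, coloured by subspecies and stage, with circles for main wing and triangles for anterior hindwing. MSTRG.18526 is separated by stage, while MSTRG.6728, MSTRG.479, MSTRG.480 and MSTRG.15414 each have single demophoon 70% libraries far above the rest.

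Chromosomes were read from the nearest loci with a gene model, since assembly numbers follow the genome. Applied to each annotated locus as if it had none, this way of placing gave the right chromosome for 11077 of 11093 (99.9%). Of the members, 177 had an annotated locus of the same scaffold on each side and 155 had one at the next number. Chromosomes 11 and 13 held 14 members each, chromosome 1 held 13, chromosome 15 held 12 and chromosome 12 held 11. Chromosomes 2, 5 and 9 held the fewest, with 3 each, and chromosome 20 held 5. The other 12 chromosomes, the Z among them, held between 7 and 10. As a share of the unannotated loci of a chromosome, members ranged from 0.598% on chromosome 2 to 2.73% on chromosome 1.

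The counts were less evenly spread than the loci. The 8 members of chromosome 18 took 1.76% of all counts on average, owing to MSTRG.18526, and the 14 of chromosome 11 took 0.863%. Members of chromosomes 7, Z, 1, 13 and 16 took 0.797%, 0.764%, 0.719%, 0.635% and 0.598%. The share of the Z rests on MSTRG.22334, whose place is not settled: it is the last number of the assembly, and the nearest annotated locus, on the Z, lies 10 numbers away. MSTRG.2772 and MSTRG.4012 were the other members without annotated loci of 1 scaffold on both sides.

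The floor was set for members and not for their neighbours, so that levels beside each other are a description. In 137 of 180 cases the member was more abundant in CPM than its nearest annotated locus, which was past the floor itself for 70 members, under 1 CPM for 32 and without a count in any library for 6. The correlation of a member with that neighbour within groups (log2 of CPM + 0.5, 32 libraries, 2 from each animal) had a median of 0.13. It was above 0.7 for 10 members, among them MSTRG.716 at 0.97, MSTRG.15070 at 0.89, MSTRG.18123 at 0.87 and MSTRG.888 at 0.83, and below -0.3 for 17. Whether a member and its annotated neighbour belong to 1 transcript was not tested.

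MSTRG.18526 on chromosome 18 had the largest stage difference of any member. In cyrbia main wings its level at 50% was 248, 86.5, 37.2 and 25.5 CPM in the 4 animals, against 42445, 22615, 32209 and 41977 CPM at 70%. In demophoon main wings it was 34.3, 22.0, 7.77 and 158 CPM at 50%, against 28519, 22393, 45538 and 33485 CPM at 70%. Every 70% library of either region thus had 22393 CPM or more and every 50% library at most 949 CPM. The log2 fold change from 50% to 70%, from edgeR's quasi-likelihood test with Benjamini-Hochberg adjustment over all 15485 loci tested, was 8.38 ± 1.04 (SE) in cyrbia (FDR 2.87e-05) and 9.31 ± 1.08 in demophoon (FDR 1.34e-05). In the anterior hindwing the log2 fold changes were 7.11 and 7.82. The annotated neighbour MSTRG.18527, at a mean of only 8.63 CPM, rose in the same direction by 3.34 ± 0.88 in cyrbia (FDR 0.0106) and 3.42 ± 0.88 in demophoon (FDR 0.00863) on the log2 scale, although within groups the levels of the pair were not correlated (r = -0.07).

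Across the members, 53 of 180 (29.4%) differed between stages in cyrbia main wings, 22 higher and 31 lower at 70%, where 26.1% of all loci tested did (12.3% higher and 13.7% lower). In demophoon 56 (31.1%) differed, 30 higher and 26 lower, against 28.1% of all loci (15% higher and 13.1% lower). These shares were near the background and below the 45.1% and 45.6% of abundant annotated loci. The median log2 fold change over members was -0.14 in cyrbia and 0.02 in demophoon, beside -0.02 and 0.05 over all loci. Of the called members, 37 in cyrbia and 33 in demophoon differed 2-fold or more, and 11 and 14 differed 4-fold or more.

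Called in both subspecies were 38 members, which is 71.7% of the cyrbia calls and 67.9% of the demophoon calls, and all 38 had the same direction, 18 higher and 20 lower at 70%. The overlap over all loci is not given here, so this one cannot be read as a trait of the members. The animals of the subspecies are separate, though all groups share 1 estimate of the spread. For the 15 called in cyrbia only and the 18 called in demophoon only, the difference between subspecies did not pass the interaction test. Without animals 13 and 14, a setting chosen after the data were seen that leaves 2 demophoon animals at 70%, the demophoon count was 36 of 180. In the anterior hindwing of the same animals, 50 members differed in cyrbia (background 24.3%) and 49 in demophoon (background 23.1%), of which 40 and 38 were also called in the main wing, all in the same direction. For all loci, the overlap between regions is not given either.

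Members that rose towards 70% were led, after MSTRG.18526, by MSTRG.13856 on chromosome 13. Its levels in cyrbia main wings were 20.0, 41.1, 15.5 and 6.17 CPM at 50% and 589, 321, 531 and 804 CPM at 70%. In demophoon they were 31.6, 26.9, 40.5 and 45.4 CPM at 50% and 395, 367, 566 and 327 CPM at 70%. The stages were fully separated in both subspecies, with log2 fold changes of 4.73 ± 0.46 (FDR 3.06e-06) and 3.62 ± 0.44 (FDR 1.97e-05).

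MSTRG.7446 on chromosome 8 rose by 2.68 ± 0.37 in cyrbia (FDR 7.14e-05) and 2.67 ± 0.37 in demophoon (FDR 7.00e-05) on the log2 scale. MSTRG.4997 on chromosome 3 rose by 2.97 ± 0.41 (FDR 6.77e-05) and 1.86 ± 0.39 (FDR 0.00222). MSTRG.4997 also differed between subspecies at 50%, as described below. MSTRG.10776 on chromosome 11, MSTRG.18903 on chromosome 18, MSTRG.14306 on chromosome 14 and MSTRG.695 on chromosome 1 rose by 2.11, 1.92, 1.53 and 1.32 in cyrbia and by 2.48, 2.25, 1.97 and 1.60 in demophoon. Their levels ran together over the 32 libraries although they lie on 4 chromosomes, with r of 0.98 between MSTRG.10776 and MSTRG.695 and 0.96 between MSTRG.14306 and MSTRG.18903 (log2 of CPM + 0.5). With the group means taken out, r for these pairs was 0.81 and 0.52.

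Members that fell towards 70% were led by MSTRG.492 on chromosome 1. In cyrbia main wings it had 329, 393, 276 and 293 CPM at 50% and 35.1, 35.3, 60.3 and 30.4 CPM at 70%. In demophoon it had 576, 316, 515 and 534 CPM at 50% and 24.8, 41.1, 71.8 and 66.6 CPM at 70%. No animal of one stage overlapped the other, and the log2 fold changes were nearly the same in both subspecies, at -3.14 ± 0.26 (FDR 6.78e-07) and -3.18 ± 0.26 (FDR 5.26e-07).

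MSTRG.13937 and its adjacent locus MSTRG.13938, both members on chromosome 13, fell together. The log2 fold changes were -2.40 ± 0.21 in cyrbia and -2.12 ± 0.21 in demophoon for MSTRG.13937 (FDR 1.12e-06 and 3.24e-06), and -2.40 ± 0.30 and -1.83 ± 0.30 for MSTRG.13938 (FDR 3.08e-05 and 0.000269). MSTRG.5378 on chromosome 6 had log2 fold changes of -2.40 in cyrbia and -2.39 in demophoon, and MSTRG.120 on chromosome 1 of -2.40 and -2.15.

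MSTRG.888 on chromosome 1 had main wing levels of 481, 370, 162 and 175 CPM in cyrbia at 50% and 52.2, 83.6, 60.7 and 57.6 CPM at 70%. It fell by 2.30 ± 0.31 in cyrbia (FDR 6.38e-05) and by 2.46 ± 0.32 in demophoon (FDR 3.48e-05) on the log2 scale. Its annotated neighbour MSTRG.889 fell too, by 2.41 ± 0.37 and 2.86 ± 0.38. Such a match was found for a minority of the members called. Of 53 members called between stages in cyrbia, 47 had a nearest annotated locus that was tested, and it was called in the same direction for 14 and in the opposite one for 7. In demophoon 50 of 56 had one that was tested, 17 called in the same direction and 6 in the opposite one. Of all loci tested, 12.3% were called higher and 13.7% lower in cyrbia, and 15% and 13.1% in demophoon. Calls of neighbours in the same direction were thus more frequent than this background and those in the opposite direction were near it, which was not tested.

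**Figure D3:**
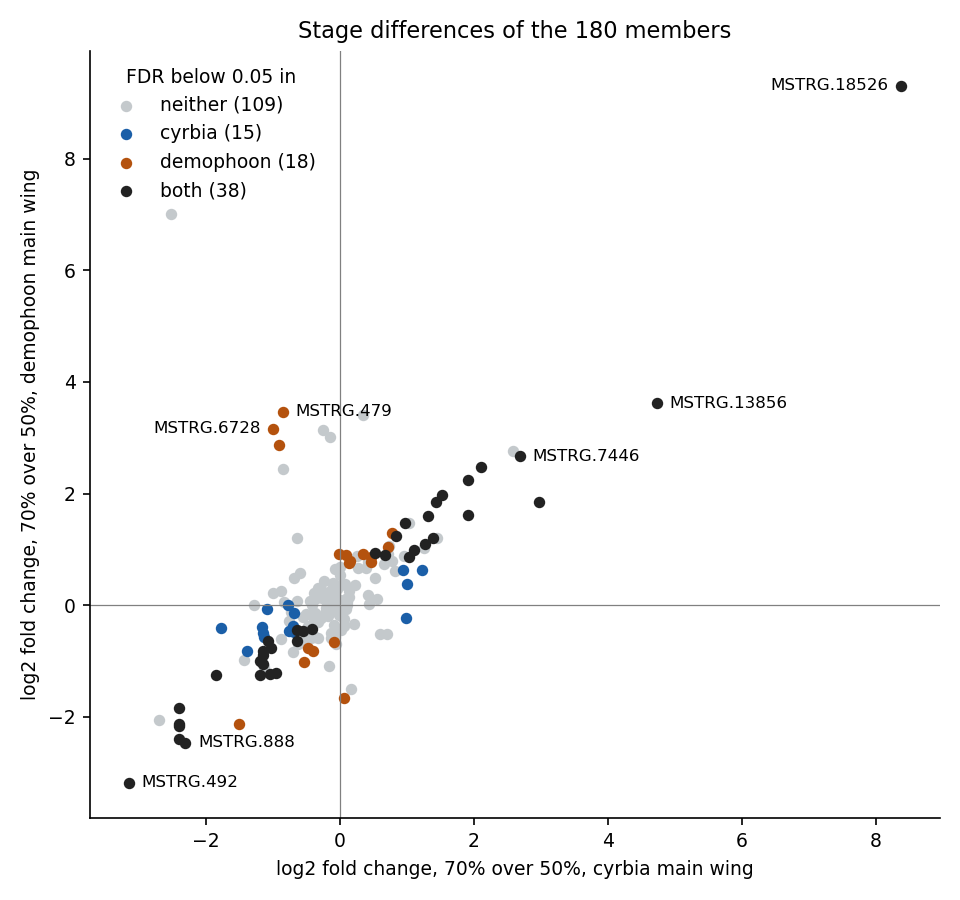
Log2 fold change from 50% to 70% of development in cyrbia (horizontal axis) and demophoon (vertical axis) main wings for each of the 180 members, coloured by the subspecies in which the FDR was below 0.05. The 38 members called in both lie in the lower left and upper right, and MSTRG.6728 and MSTRG.479 were high in the demophoon animals 13 and 14.

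Called stage differences were found on most chromosomes. On chromosome 13, 6 of 14 members were called in cyrbia and 4 in demophoon, and on chromosome 18 it was 4 and 5 of 8. None of the 3 members of chromosome 5 or of the 3 of chromosome 9 were called in either subspecies. Of all loci tested, 26.1% were called in cyrbia and 28.1% in demophoon. With so few members for each chromosome, no chromosome was tested against these shares. On chromosome 20, MSTRG.21322 fell by 0.54 in cyrbia (FDR 0.0117) and 0.46 in demophoon (FDR 0.0268), and MSTRG.20593 rose by 1.00 in cyrbia (FDR 0.0430). On the Z chromosome, MSTRG.22304 rose by 0.99 ± 0.15 (FDR 0.000201), MSTRG.21598 fell by 0.69 (FDR 0.0292) and MSTRG.22063 by 1.77 (FDR 0.0215) in cyrbia, and MSTRG.21830 rose by 0.92 in demophoon (FDR 0.0348), all on the log2 scale.

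Between subspecies at 50%, 7 of 180 members (3.89%) differed in the main wing, all lower in cyrbia than in demophoon, where 9.69% of all loci tested differed (4.33% higher and 5.36% lower). At 70%, 8 members (4.44%) differed, 2 higher and 6 lower in cyrbia, against 9.17% of all loci (3.25% higher and 5.92% lower). Of abundant annotated loci, 4.36% and 4.27% were called. The counts moved with single animals, from 2 to 9 at 50% and from 4 to 11 at 70% when 1 animal was left out. They were 2 to 4 at 50% without animal 1, 4, 5, 6, 7 or 8, and 4 or 5 at 70% without animal 10, 11, 12, 13 or 14. Without animals 13 and 14 together they were 3 and 0. Sex is unequal between the groups, most of all at 70%, where all 4 cyrbia were male and 3 of 4 demophoon were female, and with sex as a term the count at 70% was 2.

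MSTRG.12136 on chromosome 12 was the 1 member called lower in cyrbia at both stages in the main wing. At 50% its main wing levels were 33.5, 61.0, 76.9 and 52.3 CPM in cyrbia and 337, 175, 235 and 222 CPM in demophoon. At 70% they were 61.0, 110, 135 and 57.3 CPM in cyrbia and 247, 489, 368 and 164 CPM in demophoon. The subspecies did not overlap at either stage. The log2 fold changes of cyrbia over demophoon were -1.88 ± 0.37 (FDR 0.00561) and -1.84 ± 0.37 (FDR 0.00637), and in the anterior hindwing -2.06 ± 0.32 (FDR 0.00104) and -1.75 ± 0.32 (FDR 0.00319). It was called under all 25 settings at 50% and under 24 of 25 at 70%, the exception being the fit without animals 13 and 14.

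The subspecies difference of MSTRG.22304 on the Z chromosome changed direction with stage. At 50% it had 19.8, 21.2, 25.0 and 19.2 CPM in cyrbia and 39.9, 35.2, 38.1 and 35.3 CPM in demophoon, so that every cyrbia animal was below every demophoon animal. At 70% it had 43.6, 38.6, 56.1 and 47.4 CPM in cyrbia and 23.0, 28.4, 39.2 and 28.6 CPM in demophoon, where 1 demophoon animal lay above the lowest cyrbia animal. The log2 fold changes were -0.57 ± 0.15 (FDR 0.0296) and 0.65 ± 0.15 (FDR 0.0155). The interaction of stage and subspecies was 1.21 ± 0.21 on the log2 scale and missed the threshold in the main wing (FDR 0.0572) but passed it in the anterior hindwing of the same animals, at 1.22 ± 0.21 (FDR 0.0377). The call at 50% was lost in 9 of 25 settings, with no filter, with only the 8 libraries compared, without animal 1, 2, 4, 5, 6 or 7 and without animals 13 and 14, at FDRs of 0.0517 to 0.0800. The call at 70% was lost with sex as a term (FDR 0.05004), without animal 12 (FDR 0.0561), without animal 13 (FDR 0.0527) and without animals 13 and 14 (FDR 0.155).

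MSTRG.11315 on chromosome 11 was the other member with a called interaction, in the anterior hindwing. In cyrbia main wings it had 29.7, 46.0, 28.5 and 14.7 CPM at 50% and 38.1, 39.5, 32.9 and 22.3 CPM at 70%. In demophoon it had 57.4, 71.5, 97.0 and 72.9 CPM at 50% and 28.2, 17.9, 24.7 and 15.0 CPM at 70%. Its level thus fell towards 70% in demophoon (log2 -1.66 ± 0.30, FDR 0.000741), while the stage difference in cyrbia was 0.06 ± 0.29. At 50% it was lower in cyrbia by -1.13 ± 0.30 (FDR 0.0270), as was its annotated neighbour MSTRG.11314 by -1.42 ± 0.19 (FDR 0.000436), and this call of MSTRG.11315 was lost in 4 of 25 settings. At 70% the main wing difference was 0.59 ± 0.30 and was not called (FDR 0.242, called in 2 of 25 settings). The interaction was 1.72 ± 0.42 in the main wing (FDR 0.165) and 2.1 ± 0.32 in the anterior hindwing (FDR 0.0198).

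MSTRG.4997 at 50% had 106, 72.5, 23.4 and 40.7 CPM in cyrbia and 187, 250, 91.1 and 172 CPM in demophoon, with 1 cyrbia animal above the lowest demophoon animal. The log2 fold change was -1.35 ± 0.38 (FDR 0.0394), and the call was lost under 10 of 24 alternatives. MSTRG.17749, MSTRG.16691 and MSTRG.3062 were lower in cyrbia at 50% by -0.81, -0.62 and -0.60 on the log2 scale, the last with an FDR of 0.0497. They were called in 18, 16 and 7 of 25 settings, and MSTRG.16691 and MSTRG.3062 were not with sex as a term (FDR 0.0515 and 0.0708). At 70% MSTRG.17749 and MSTRG.3062 had log2 fold changes of -0.72 (FDR 0.0571) and -0.59 (FDR 0.0537).

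At 70%, MSTRG.12751 on chromosome 12 had 109, 53.3, 73.2 and 106 CPM in cyrbia and 27.0, 24.3, 28.9 and 41.1 CPM in demophoon, with no overlap (log2 1.5 ± 0.27, FDR 0.00350). The call was lost only without animals 13 and 14 (FDR 0.0567). MSTRG.1090 on chromosome 1 had 51.1, 50.3, 42.7 and 25.7 CPM in cyrbia and 68.8, 91.9, 115 and 88.4 CPM in demophoon, again with no overlap (log2 -1.10 ± 0.23, FDR 0.00853). That call was lost with sex as a term (FDR 0.0567) and without animals 13 and 14 (FDR 0.0627). MSTRG.18100 on chromosome 18 was lower in cyrbia by -0.84 ± 0.23 (FDR 0.0336), called in 17 of 25 settings and not with sex as a term (FDR 0.0912).

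**Figure D4:**
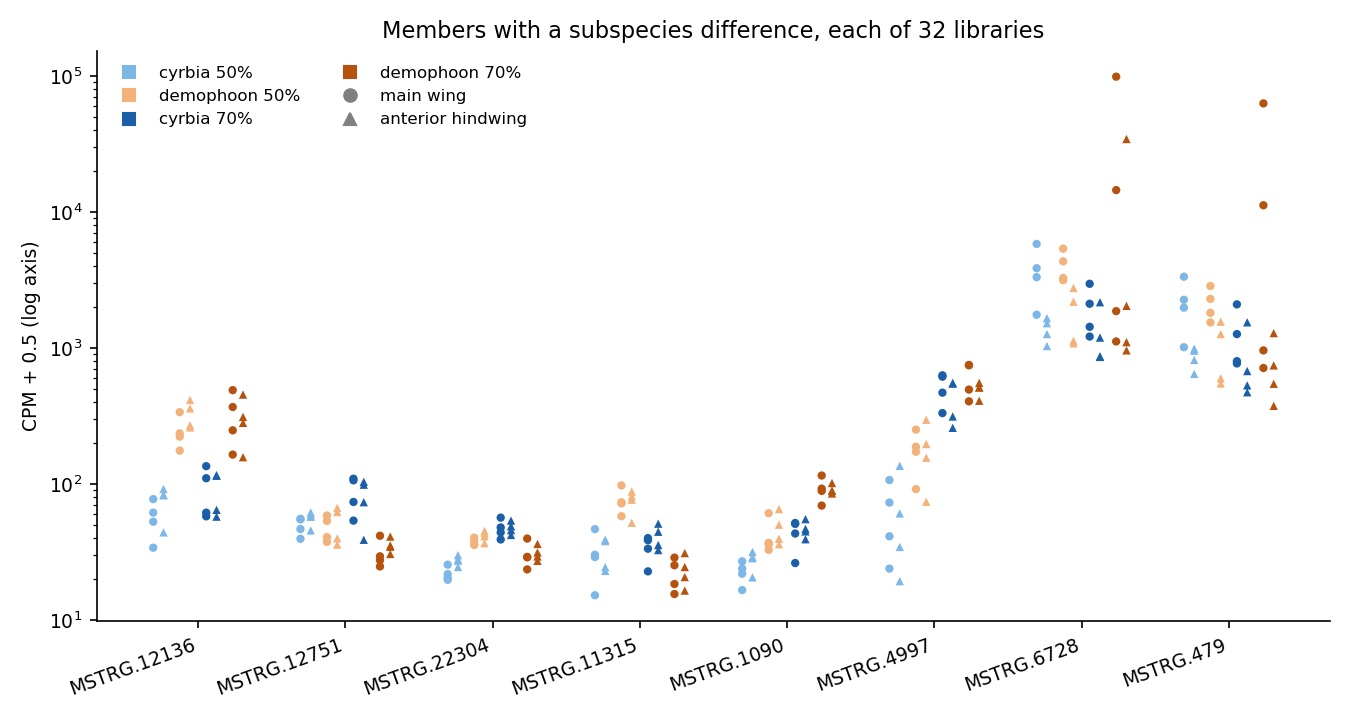
Level (CPM + 0.5, log axis) in each of the 32 libraries of 8 members with a subspecies difference at 50% or 70%, coloured by subspecies and stage, with circles for main wing and triangles for anterior hindwing. MSTRG.12136 is lower in cyrbia at both stages, MSTRG.22304 is lower at 50% and higher at 70%, and the differences of MSTRG.6728 and MSTRG.479 rest on 2 demophoon animals.

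The other 3 members called at 70% belong to the set of 9. MSTRG.479 had a log2 fold change of cyrbia over demophoon of -4.09 ± 1.14 (FDR 0.0363), MSTRG.6728 of -4.08 ± 1.12 (FDR 0.0340) and MSTRG.16473 of -3.84 ± 1.07 (FDR 0.0367). For MSTRG.6728 the demophoon main wing levels were 98720, 14471, 1115 and 1864 CPM, and the cyrbia levels of 1212 to 2962 CPM overlapped the last pair. Without animals 13 and 14 the log2 fold change was 0.53 for MSTRG.6728 and 0.74 for MSTRG.479, of the opposite sign, and neither was called. The 3 loci were called between stages in demophoon too, with log2 fold changes of 3.16 for MSTRG.6728, 3.46 for MSTRG.479 and 2.87 for MSTRG.16473 that rest on the same animals.

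In the anterior hindwing, 16 members differed between subspecies at 50% (1 higher and 15 lower in cyrbia) and 10 at 70% (4 higher and 6 lower). The background over all loci was 11.4% at 50%, with 4.76% higher and 6.61% lower, and 9.64% at 70%, with 3.46% higher and 6.18% lower. Of the 2200 abundant annotated loci, 105 were called at 50% (64 higher and 41 lower) and 111 at 70%, a smaller share than of members at 50%, a difference that was not tested. Of the 7 called in the main wing at 50%, 5 were among them, and of the 8 called at 70%, 4 were, all in the same direction. The animals are the same, so this is not an independent check of the subspecies, and the overlap between regions over all loci is not given here. In the anterior hindwing MSTRG.11315 was lower in cyrbia at 50% by -1.25 and higher at 70% by 0.85 (FDR 0.0262). MSTRG.3548 on chromosome 4 was lower by -1.35 and -1.44.

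For the interaction, edgeR called 0 of 180 members in the main wing, where it called 0.0517% of all loci, while DESeq2 called 2. In the anterior hindwing MSTRG.11315 and MSTRG.22304 were the 2 called (background 0.188%). For sex, with group as a term, edgeR called 0 members, where it called 0.0129% of all loci. At an unadjusted p under 0.05 there were 6 members, for which that share of calls is no background.

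Between the main wing and the anterior hindwing of the same animals, edgeR with the animal as a block called 0 members in each of the 4 combinations of subspecies and stage. Of all 18276 loci tested, 0.186% were called in cyrbia at 50%, 0.252% in cyrbia at 70%, 0.0985% in demophoon at 50% and 0.367% in demophoon at 70%. At an unadjusted p under 0.05 there were 36, 30, 25 and 38 members in the same order, and DESeq2 called 15, 9, 5 and 25. The shares of all loci above are for edgeR calls and are no background for these counts. No excess among members can therefore be read from them. Nearest to the threshold were MSTRG.7107 in cyrbia at 50% (log2 main wing over anterior hindwing 0.34 ± 0.08, FDR 0.0969), MSTRG.14306 in cyrbia at 70% (0.42 ± 0.10, FDR 0.0920), MSTRG.18526 in demophoon at 50% (-1.70 ± 0.35, FDR 0.0794) and MSTRG.8769 in demophoon at 70% (0.48 ± 0.11, FDR 0.0639). Without animal 16, 5 members were called in demophoon at 70%.

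Of the 180 members, 105 were called in no comparison of the main wing or of the regions. The most even levels were those of MSTRG.3045, MSTRG.2592, MSTRG.18123 and MSTRG.8200. For MSTRG.8200 on chromosome 9 the 8 group means lay between 566 and 705 CPM. Over all members the SD within a group was 0.231 of its mean at the median, against 0.192 for abundant annotated loci, and the highest group mean was 2.25 times the lowest at the median, against 1.96 times.

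Members differed from abundant annotated loci most in how the 2 libraries of an animal compared. In 35 members (19.4%) the levels in the 2 regions of at least 1 animal were 4-fold or more apart, against 2.86% of abundant annotated loci. There were 30 cases, in 12 members, in which a locus was at 0 in one region and at 20 CPM or more in the other region of the same animal, and no abundant annotated locus had such a case. The higher library was the main wing in some animals and the anterior hindwing in others, and the tests between regions called no member.

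A part of the zeros came from 5 pairs of adjacent members whose counts were the same number in most libraries. The counts of MSTRG.21452 and MSTRG.21453 on chromosome 20 were identical in 28 of 32 libraries. Those of MSTRG.18541 and MSTRG.18542 on chromosome 18, and of MSTRG.15414 and MSTRG.15415 on chromosome 15, were identical in 25. Those of MSTRG.479 and MSTRG.480 on chromosome 1, and of MSTRG.7787 and MSTRG.7788 on chromosome 8, were identical in 24.

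Of the 160 pair and library combinations, 126 were identical, 10 were within 1% of each other, 22 had one locus at 0 and 2 were apart. Both exceptions were MSTRG.479 and MSTRG.480 in animal 13, with 1483306 against 361901 counts in the main wing and 16965 against 1181042 in the anterior hindwing. Among the 16105 other pairs of members, none had identical counts in more than 2 libraries. In the whole table, 11 of 22333 pairs of adjacent loci had 20 or more identical libraries, and all 11 were pairs of unannotated loci. With no sequence at hand, whether the loci of a pair share sequence was not tested. The levels of these 10 members are uncertain, since how the counting assigned reads to the loci of a pair was not tested. Where the counts of a pair were identical, the shares of library counts given above include that number for both loci. Whether the same reads were counted for both was not tested.

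**Figure D5:**
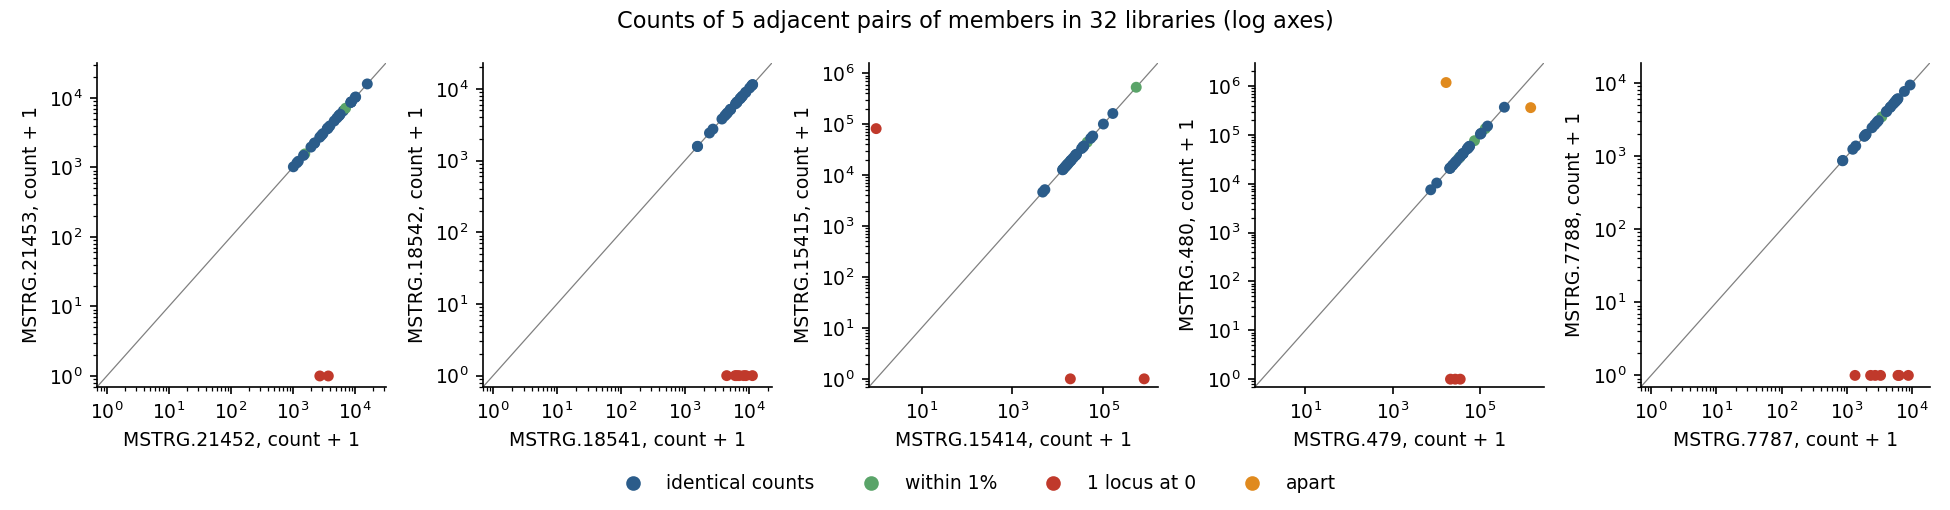
Counts + 1 (log axes) of the 5 pairs of adjacent members in the 32 libraries, one point per library, coloured by whether the counts were identical, within 1%, apart, or 0 for one locus. Of the 160 points, 126 are identical and lie on the diagonal, and 22 have one locus at 0.

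Where one locus of a pair was at 0, the level of the other lay within its range elsewhere in 4 of the pairs. It was 545 to 2294 CPM for MSTRG.479 (375 to 62804 elsewhere), 67.7 to 87.5 CPM for MSTRG.21452 (48.1 to 271 elsewhere), 118 to 227 CPM for MSTRG.18541 (103 to 252 elsewhere) and 76.1 to 167 CPM for MSTRG.7787 (49.1 to 206 elsewhere). In the pair on chromosome 15, where MSTRG.15414 or MSTRG.15415 was at 0, the other of the pair had 34.3 counts for 100 of MSTRG.6728 on average (3 libraries), against 34.2 over all libraries, which ranged from 32.0 to 35.8. That ratio held over the whole range of MSTRG.6728, from 858 to 98720 CPM, although the loci were placed on chromosomes 7 and 15.

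Of the 8 members with zeros outside these pairs, 5 had an adjacent locus that, where they were at 0, passed both 20 CPM and its own highest level elsewhere. MSTRG.3373 on chromosome 5 was at 0 in 17 libraries and had 123 to 302 CPM in the other 15. The adjacent locus MSTRG.3372, whose ID marks an added gene model and not one of the reference, had 214 to 1237 CPM where MSTRG.3373 was at 0 and 46.5 to 121 CPM elsewhere, with no overlap. MSTRG.7263 on chromosome 8 was at 0 in 6 libraries, where the annotated MSTRG.7264 had a median of 202 CPM against 18.6 CPM elsewhere, with ranges of 47.3 to 247 and 3.43 to 77.0 CPM that overlapped.

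Single libraries showed the same for 2 members. MSTRG.8848 was at 0 in 1 library, where MSTRG.8849 had 60.5 CPM against at most 6.38 elsewhere, and MSTRG.19841 in 1 library, where MSTRG.19840 had 86.1 CPM against 16.3 to 60.4. The fifth is MSTRG.10219, beside MSTRG.10218. For MSTRG.5187, MSTRG.2662 and MSTRG.16471 the most abundant adjacent locus lay within its range elsewhere, at 266 to 424 CPM for MSTRG.5188 (156 to 524 elsewhere), 59.0 CPM for MSTRG.2661 (12.4 to 186 elsewhere) and 118 to 1762 CPM for MSTRG.16472 (65.1 to 22192 elsewhere). Levels of 0 in all 8 are uncertain, and the part of read assignment in them was not tested.

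MSTRG.7763 on chromosome 8 had 2 separate ranges of level. In 8 libraries it had 190 to 634 CPM and in the other 24 it had 1665 to 4102 CPM. The 8 low libraries came from 8 animals, so that no animal was low in both regions, and they fell in every combination of subspecies and stage. The limit of 1000 CPM between the ranges was set after the values were seen.

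Some members differed between animals of a group in both regions alike. In 22 members (12.2%) at least 1 animal was 4-fold or more above or below the others of its group in both of its libraries, against 5.64% of abundant annotated loci. Among the 22 are members with uncertain zeros: MSTRG.480, MSTRG.15414, MSTRG.18542, MSTRG.21453 and MSTRG.7788 of the pairs, and MSTRG.3373, MSTRG.10219 and MSTRG.16471. MSTRG.4012 had 0.113 to 0.214 CPM in the main wings of animals 6 and 8, both demophoon at 50%, and 67.7 and 96.8 CPM in those of animals 5 and 7. The anterior hindwings of the 4 animals split in the same way, at 0.106 and 0.0968 CPM against 66.8 and 81.8 CPM. The 12 other animals had 11.7 CPM or more in each library.

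MSTRG.14589 on chromosome 14 was apart in 7 animals. Its main wing levels were 2.16, 395, 8.87 and 88.7 CPM in cyrbia at 70%, and its anterior hindwing levels in the same animals were 7.42, 272, 7.65 and 45.2 CPM. The order of the 4 animals was the same in both regions. MSTRG.10219 on chromosome 10 was at 0 in both libraries of animal 13 and at 50.8 CPM or more in the other 30, and the adjacent MSTRG.10218 had 103 and 128 CPM in that animal against a median of 0 and a highest value of 117 CPM elsewhere.

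The set of 9 members consisted of MSTRG.6728 on chromosome 7, the pair MSTRG.479 and MSTRG.480 on chromosome 1, the pair MSTRG.15414 and MSTRG.15415 on chromosome 15, and 4 adjacent loci on chromosome 16, MSTRG.16471 to MSTRG.16474. Over the 32 libraries the correlation with MSTRG.6728 (log2 of CPM + 0.5) was 0.98 for MSTRG.16473, 0.80 for MSTRG.16472, 0.76 for MSTRG.479, 0.74 for MSTRG.16474 and 0.70 for MSTRG.16471. It was 0.50 for MSTRG.15414 and 0.41 for MSTRG.480, both of which had zeros, and -0.04 for MSTRG.15415, which had zeros too, below the 0.31 of MSTRG.21452, which is not in the set. In animal 13, MSTRG.479 was at 375 CPM in the anterior hindwing, its lowest level in any library, and MSTRG.15415 was at 0 in the main wing. In the same animal MSTRG.6728 had 98720 CPM in the main wing and 34374 CPM in the anterior hindwing. In animal 14 it was high in the main wing alone, with 14471 CPM against 1103 CPM in the anterior hindwing. Libraries share depth and composition, and these correlations carry no test.

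A further group ran together without any library standing apart. The level of MSTRG.10720 on chromosome 11 was 38.9 per 100 of MSTRG.22334 at the median of the 32 libraries, from 32.9 to 41.1, with r of 0.99 over all libraries and 0.99 within groups. MSTRG.10444, also on chromosome 11, had r of 0.94 with MSTRG.22334 and 0.93 with MSTRG.10720. Over all 16110 pairs of members the median r was 0.08, and 9 pairs were above 0.95.

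The 3 loci tended to be higher in demophoon, but none was called. MSTRG.22334 had a mean of 4974 ± 1491 CPM in cyrbia and 7703 ± 428 CPM in demophoon main wings at 50%, and 6715 ± 2461 and 11474 ± 3839 CPM at 70% (SD, n = 4). The log2 fold change at 70% was -0.80 ± 0.27 for MSTRG.22334 (FDR 0.0804), -0.76 ± 0.29 for MSTRG.10720 (FDR 0.114) and -0.77 ± 0.34 for MSTRG.10444 (FDR 0.172).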

How the data were processed

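Each animal was a replicate and gave a main wing and an anterior hindwing library. Per the submitters' processing notes, the authors used Trimmomatic (v. 0.38) for trimming, HISAT2 (v. 2.1.0) for alignment, SAMtools (v. 1.9) and, for the assembly of transcripts, StringTie (v. 1.3.5). The deposited table holds whole-number counts for each locus without normalisation. With StringTie, counts come from the coverage of transcripts, so that reads shared by loci can be assigned differently in each library. Not given in the sources used here were the genome build, the annotation version and the use of strand. None of the IDs matched the 14137 genes of the reference table at hand (0 matches), and 1784 rows had no assembly number.

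Library totals were 9330883 to 68986011 counts, and sampling error is small at 20 CPM. Counts were compared by the quasi-likelihood F test of edgeR (v. 4.0.16, with limma v. 3.58.1 and R v. 4.3.3), fitted robustly after filterByExpr and TMM scaling, and a locus was called at a Benjamini-Hochberg FDR below 0.05 over all loci tested. Stage, subspecies, interaction and sex were fitted to the 16 main wing libraries, and regions to all 32 with the animal as a block. The labels give the animal of each library, and the regions of an animal correlated with r of 0.48 to 0.76 (deviations from group means over 18276 loci). All 180 members passed the filter, which the floor of 20 CPM fixes. The fits were tested on simulated data with 200 changed loci. P-values of the stage, subspecies, interaction and sex tests set a difference against the spread between animals. Those of the region tests set it against how the difference between regions varied from animal to animal. Fold changes at an annotated neighbour come from the same fit.

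Alternatives were RLE size factors, no filter, DESeq2 (v. 1.42.0), sex as a term, the anterior hindwing libraries, summed regions, only the 8 libraries compared, fits without the block, each animal left out, other floors and, added after seeing the data, animals 13 and 14 left out together. Loci were named by rule: the 10 with the highest mean, the largest called changes in each comparison (2 in each direction for subspecies and stage), the 4 most even, the 2 with the largest difference between regions of an animal, and the nearest to the floor. The other loci named were chosen after their values were seen. The members and lists were chosen with earlier results of these data known. Tables were made with Python (v. 3.11.15), pandas (v. 2.3.3) and numpy (v. 2.4.6).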

Additional observations from a re-analysis of the deposited data

Results flagged for a closer look

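In each group of 4 animals, a value was set aside where its gap to the nearest other value made up a larger part of the range of the group than the Dixon test allows at the 95% level. Chance alone does this in about 1 of 20 groups, and 208 group values were examined. The share of counts in the members was low in animal 4 in cyrbia main wings at 50% (3.49%, others 5.18% to 5.49%) and in animal 1 in cyrbia anterior hindwings at 50% (3.77%, others 4.18% to 4.26%). It was high in animal 13 in demophoon anterior hindwings at 70% (18.0%, others 7.76% to 8.76%).

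Animal 13 gave 8 of the values that stood apart. In demophoon main wings at 70% it had 98720 CPM of MSTRG.6728 (others 1115 to 14471), 62804 CPM of MSTRG.479 (others 711 to 11193) and 33612 CPM of MSTRG.15414 (others 374 to 4913). In the anterior hindwings it had 34374 CPM of MSTRG.6728 (others 959 to 2038), 26077 CPM of MSTRG.480 (others 0 to 744), 11713 CPM of MSTRG.15414 and 11714 CPM of MSTRG.15415 (others 331 to 701 for both). In the main wings MSTRG.15415 was at 0 in animal 13, and animal 14 stood apart with 4913 CPM (others 0 to 653).

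MSTRG.18526 was high in animal 1 in cyrbia anterior hindwings at 50%, with 949 CPM against 33.3 to 48.4. MSTRG.7763 was low in animal 5 in demophoon main wings at 50%, with 373 CPM against 3504 to 3967. MSTRG.492 was high in animal 11 in cyrbia main wings at 70%, with 60.3 CPM against 30.4 to 35.3, and MSTRG.13937 in animal 4 in cyrbia main wings at 50%, with 381 CPM against 205 to 232. In cyrbia anterior hindwings at 70%, MSTRG.18123 was low in animal 12 (28.7 CPM, others 41.6 to 44.1), MSTRG.16042 was high in animal 10 (28.4 CPM, others 20.3 to 21.6) and MSTRG.17021, just outside the floor, was high in animal 9 (27.9 CPM, others 20.3 to 20.6). MSTRG.16042 was also high in animal 15 in demophoon main wings at 70% (43.5 CPM, others 19.1 to 21.6).

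MSTRG.13937 at 50% was lower in CPM in the main wing than in the anterior hindwing in all 4 cyrbia animals (mean log2 ratio -0.31, from -0.36 to -0.20). In the 4 demophoon animals the mean log2 ratio was 0.29, from 0.014 to 0.50, so that the lowest was close to no difference. The ratios were made without TMM scaling. In cyrbia animal 4 the TMM factors were 0.864 for the main wing and 1.10 for the anterior hindwing, which would raise its ratio, so the split by subspecies is uncertain. This difference between the subspecies was not tested.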

How the results depend on the processing

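The stage differences of MSTRG.18526, MSTRG.492 and MSTRG.13856 in both subspecies, and that of MSTRG.13937 in cyrbia, kept their direction and call under all 24 alternatives run. The shares of all loci called under these alternatives are given above only for the anterior hindwing. Without them, a changed count cannot be read as a trait of the members. Counts that moved by more than 1.5 times were as follows. Members called between subspecies at 50% (7) were 13 with DESeq2, 16 in the anterior hindwing, 15 with regions summed, 2 with only the 8 libraries compared and 3 without animals 13 and 14. Those at 70% (8) were 2 with sex as a term, 5 with no filter, 17 with DESeq2, 14 with regions summed and 0 without animals 13 and 14. Stage calls in demophoon (56) were 36 without those animals. Interaction calls (0) were 1 with RLE size factors and 2 with DESeq2, in the anterior hindwing and with regions summed. Region calls (0) with DESeq2 were 15 and 9 in cyrbia and 5 and 25 in demophoon, at 50% and 70%. They were 3 with only the 8 libraries compared in demophoon at 50% and 1 with RLE size factors in demophoon at 70%. The fit with no replicate block gave 0 region calls among members in all 4 combinations, as did the fit with the block. With 0 calls in both fits, what the pairing by animal changes cannot be read from these counts. Leaving out 1 animal gave 2 to 9 and 4 to 11 subspecies calls, 44 to 56 and 42 to 62 stage calls in cyrbia and demophoon, 0 to 1 interaction calls, 0 sex calls, and region calls of 0 to 1, 0 to 0, 0 to 1 and 0 to 5. One interaction call appeared without animal 3, and region calls without animal 4 (cyrbia at 50%), 1 or 2 (demophoon at 50%) and 16. A floor of 10 CPM gave 363 members, one of 50 CPM gave 74 and the floor in every library gave 109. Leaving out 1 animal gave 172 to 184 members and a mean share of 6.74% to 8.20%. The difference of MSTRG.479 between subspecies at 70% turned from -4.09 to 0.23 in the anterior hindwing and 0.74 without animals 13 and 14, and that of MSTRG.6728 from -4.08 to 0.53. Apart from those that leave samples out, the cause was not tested. The lowest count of a member in any library was 428 at the median, so that counting error is small beside the spread between the 4 animals of a group, which sets what is detectable. The 14 members with zeros are uncertain.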
